A study of Sus scrofa with 6 samples.

Results

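The genes described here are 49 contractile, myofibroblast and muscle genes, read in aortic valve leaflets of male and female pigs. A gene was read through probe sets (groups of oligonucleotides on the array) whose annotation named it and no other gene, and where several did so the probe set with the highest mean over the 6 arrays was taken. By this rule 39 of the 49 genes were measured, out of 6765 genes with such a probe set on the array. They fell into 23 of 27 smooth muscle and myofibroblast genes, 14 of 19 cardiac genes and 2 of 3 pericyte genes. MYH11, LMOD1, SYNPO2 and ACTN4 of the first class, MYH6, MYL7, MB, CSRP3 and MYBPC3 of the second, and NOTCH3 of the third had no single-gene probe set in the annotation used here and were not analysed.

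Leaflet RNA of 3 castrated males and 3 females was hybridised to 1 Affymetrix Porcine Genome Array per animal. All animals were mixed-breed pigs of about 5 months and 90 kg with no treatment, and their leaflets were removed within 5 h of death, scraped with a scalpel to take off the endothelium, rinsed and kept in RNAlater. The arrays therefore read what was left of the leaflet, which is mostly valvular interstitial cells (VICs). The castration of all males limits what the male group can stand for, and whole-leaflet RNA carries a further limit, since fewer cells of a type and less RNA per cell cannot be told apart.

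Smooth muscle cells and myofibroblasts generate force by sliding actin filaments along myosin, with tropomyosins and calponin set along the actin and phosphorylation of the myosin light chain as the switch. VICs are fibroblast-like cells that can turn into myofibroblasts, a state usually recognised by ACTA2 (smooth muscle α-actin) in stress fibres. Cardiac muscle uses its own troponins, myosins and actin and controls calcium through the sarcoplasmic reticulum, and the aortic valve is anchored in a ring next to that muscle.

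Values are log2 intensities after robust multichip averaging (RMA), so that a difference of 1 is a doubling. The 25th percentile of all probe sets, used here as the low end of the array, was 5.52 as a mean over the arrays and lay between 5.46 and 5.58 on single arrays. Array medians spanned 7.33 to 7.38. Correlations over all probe sets ran from 0.987 to 0.993 between arrays of the same sex and from 0.972 to 0.987 between arrays of different sex. The tissue label was met by DCN (decorin, a matrix proteoglycan of fibroblasts), with a mean of 14.05 in males and 14.43 in females, and by COL1A2 (a type I collagen chain) at 9.25 and 9.50. COL1A1 had no single-gene probe set. Endothelial transcripts were present despite the scraping, and PECAM1, an adhesion molecule of endothelial junctions, read 13.69, 13.31 and 12.61 in male replicates 1 to 3 and 12.16, 12.28 and 11.83 in female replicates 1 to 3.

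The measured smooth muscle and myofibroblast genes lay above the low end of the array, whereas the cardiac genes were split. Means of the first class ran from 6.45 for MYLK to 14.39 for VIM. Of the further probe sets of its genes, not chosen here, 3 lay under the 25th percentile. All 23 measured smooth muscle and myofibroblast genes lay above the 25th percentile on each of the 6 arrays, and so did 7 of 14 cardiac genes. Of all genes with a single-gene probe set, 90.1% had a mean above that level. The 7 cardiac genes below it were MYH7 (β-myosin heavy chain), TNNT2 (cardiac troponin T), ACTC1 (cardiac α-actin), MYL2 (the ventricular regulatory light chain), RYR2 (the calcium release channel), TTN (titin) and CKM (muscle creatine kinase), with means over the arrays between 3.18 for TNNT2 and 5.47 for MYH7. MYH7 passed the percentile on 2 arrays and the other 6 of these genes on none. The cardiac count rests on the level chosen, with 13 of 14 genes above the 10th percentile of 4.06 and 2 of 14 above the array median of 7.36, against 23 and 21 of 23 smooth muscle and myofibroblast genes. A probe set under such a level is dim on this array, which is not a measurement of absence.

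**Figure D1:**
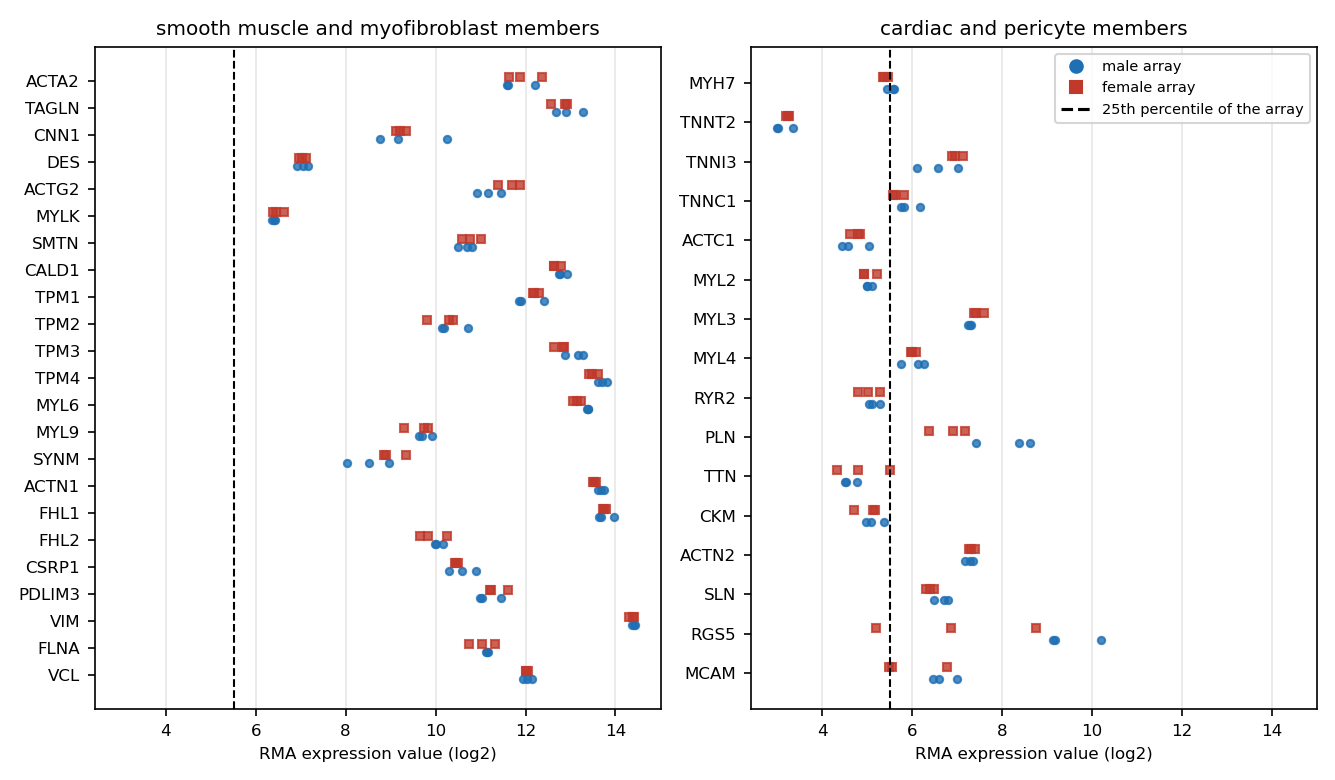
Level of each of the 39 measured genes on each of the 6 arrays (x axis, RMA log2 intensity, 1 point per array, coloured by sex), with the smooth muscle and myofibroblast genes on the left and the cardiac and pericyte genes on the right. The vertical line marks the 25th percentile of the array at 5.52. All points of the 23 smooth muscle and myofibroblast genes lie to its right, 7 of 14 cardiac genes lie to its left by their mean, and RGS5 has the widest spread between arrays.

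The sexes were compared with limma, a moderated linear model fitted over all 23999 probe sets other than controls, as male minus female. The threshold for a call was an adjusted p (Benjamini-Hochberg) under 0.05 together with a change of 2-fold or more. None of the 39 genes was called, against 73 probe sets or 0.304% of those tested. A second comparison was limited to the most variable 10% of probe sets by coefficient of variation (CV) over all 6 arrays, where limma called 183 of 2412, or 7.59%. Keeping the highest CV favours probe sets that differ by sex. The study filtered on CV to remove values too unlike between replicates and gave no share. It reported 183 genes at a false discovery rate of 0.05 and 2-fold. Whether its filter was the one used here cannot be told. Of the 39 genes the filter used here kept PLN, TTN, RGS5 and MCAM, and none of the 4 was called. The study listed RGS5 among its differential genes. Outside the 39 genes it also listed ICAM2, ESAM, TES, TPPP3, NPPB and MFAP5, which are described below as called with the filter used here. It listed CDH11 as well, which was called in neither comparison here through the probe set chosen. At an unadjusted p under 0.05 in limma, 5 of 39 genes or 12.8% passed, against 16.9% of all probe sets. Among them TPM3, MYL6, PLN and RGS5 were higher in males and ACTG2 was lower, where the shares of all probe sets were 8.08% higher and 8.83% lower. Males and females were fully separated, with no overlap, for 7 of 39 genes (17.9%), against 22.4% of all probe sets and 24.7% of all genes with 1 probe set each. Of the 7 genes 6 were higher in males, a direction in which 11.1% of all probe sets and 15.7% of all genes with 1 probe set each did not overlap. The 6 genes are 15.4% of the 39. With 3 animals against 3, the smallest p an exact permutation test can give is 0.1, two-sided.

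For most of the genes the interval also bounded the sex difference in array signal. For the 7 cardiac genes under the 25th percentile it describes a dim signal and does not limit the difference of the transcript. The 95% confidence interval of the log2 difference lay within 2-fold in either direction for 22 of 23 smooth muscle and myofibroblast genes, 13 of 14 cardiac genes and neither of the pericyte genes. The exceptions were SYNM, PLN, RGS5 and MCAM. Of all probe sets, 88.9% had such an interval. These intervals and the p-values rest on the spread within each sex among these 6 animals, which limma moderates with that of all probe sets. The median log2 difference was 0.11 for the smooth muscle and myofibroblast genes, 0.02 for the cardiac genes and 1.65 for the pericyte genes, against -0.0053 over all probe sets and 0.05 over all genes.

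**Figure D2:**
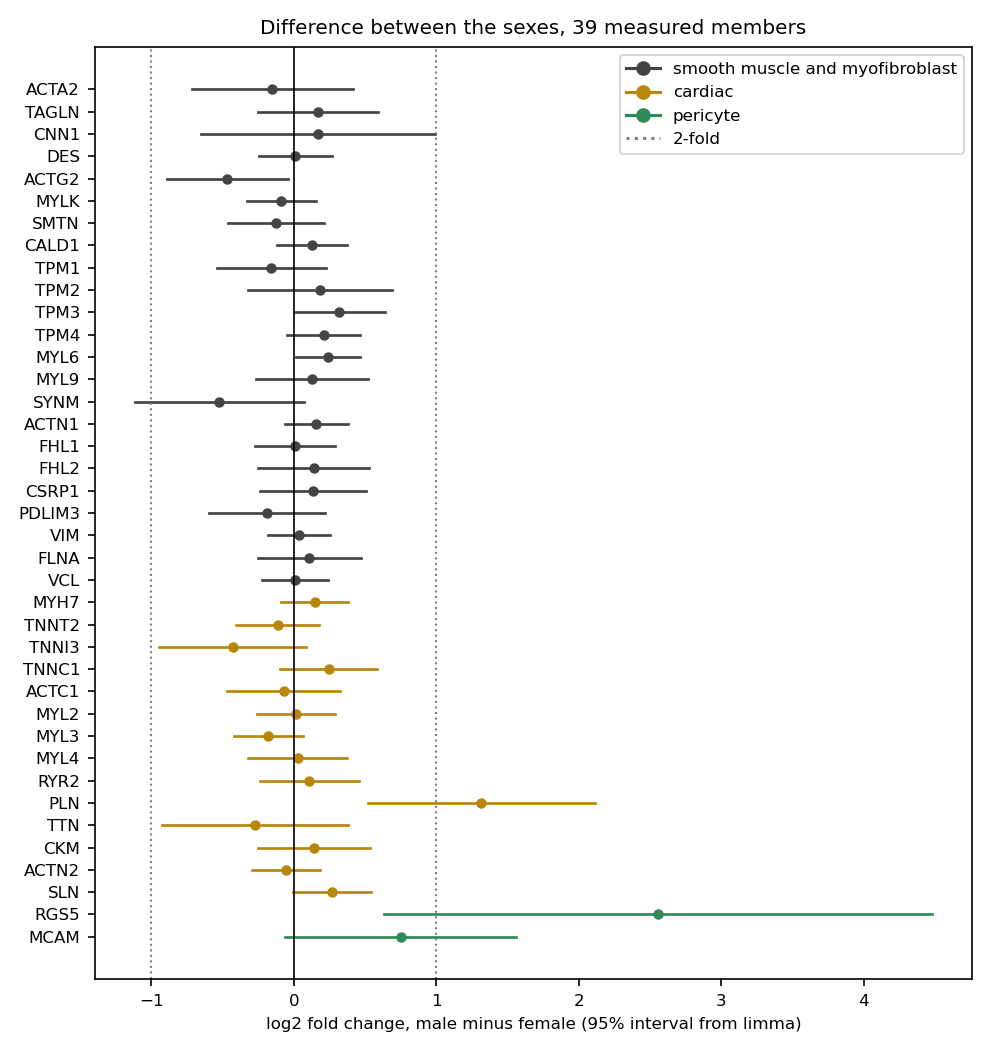
Difference between males and females for each of the 39 measured genes (x axis, log2 fold change, male minus female, points with 95% confidence intervals from limma), grouped by class, with dotted lines at a 2-fold change. The intervals of 35 genes lie between the dotted lines, and those of SYNM, PLN, RGS5 and MCAM extend beyond one of them.

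Among the actins, ACTA2 showed no order by sex. It read 11.61, 11.60 and 12.21 in male replicates 1 to 3 and 11.87, 12.37 and 11.63 in female replicates 1 to 3. The highest male value lay above 2 of the 3 female values. The log2 difference was -0.15 (SE 0.24, 95% interval -0.71 to 0.41) with an adjusted p of 0.799 from limma, so a 2-fold difference in either direction is outside the interval. ACTG2, the γ-actin of visceral smooth muscle, was singled out after its values were seen. It read 10.93, 11.17 and 11.45 in males and 11.38, 11.70 and 11.87 in females, where the highest male passed the lowest female by a narrow margin. Its log2 difference was -0.47 (SE 0.18, 95% interval -0.89 to -0.04), with an unadjusted p of 0.0352 and an adjusted p of 0.263 from limma. A further ACTG2 probe set gave a difference of 0.08, so the direction was not shared by both.

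TAGLN (transgelin, an actin-binding protein of early smooth muscle differentiation) read 12.68, 12.89 and 13.28 in males and 12.87, 12.92 and 12.56 in females. The ranges overlapped, and the log2 difference was 0.17 (SE 0.18, 95% interval -0.25 to 0.59) with an adjusted p of 0.683 from limma. CNN1 (calponin, which restrains actomyosin) is given for its spread, seen in the data, with 8.77, 9.16 and 10.25 in males and 9.21, 9.34 and 9.12 in females. Male replicate 3 stood 1.49 above male replicate 1, and the 3 females were within 0.22 of each other. The difference of 0.17 had an SE of 0.35. CALD1 (caldesmon), SMTN (smoothelin) and CSRP1 (a LIM protein of smooth muscle) differed by 0.13, -0.13 and 0.13 on the log2 scale, each with overlapping sexes. Further SMTN probe sets gave -0.21 and 0.28, so the direction was not shared by all, and a further CALD1 probe set gave 0.21. MYH11, the smooth muscle myosin heavy chain and the most specific marker of a differentiated smooth muscle cell, could not be read, so ACTA2 and TAGLN alone of the 3 defining markers describe the class here. Myofibroblasts and smooth muscle cells share both.

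Of the 4 tropomyosins, which wind along the actin filament, TPM3 was the one whose sexes did not overlap. It read 13.27, 13.16 and 12.87 in males and 12.86, 12.84 and 12.64 in females, with male replicate 3 and female replicate 1 almost touching. The log2 difference was 0.32 (SE 0.14, 95% interval 0.00 to 0.64), with an adjusted p of 0.295 from limma and an exact permutation p of 0.1. Both further TPM3 probe sets were also higher in males, by 0.35 and 0.08, each with overlapping sexes. TPM1, TPM2 and TPM4 differed by -0.16, 0.18 and 0.21, with overlapping sexes. Further probe sets gave 0.02 and -0.20 for TPM1, 0.23, -0.04 and 0.38 for TPM2, and 0.19 for TPM4.

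MYL6, the essential light chain of smooth and nonmuscle myosin, read 13.39, 13.39 and 13.37 in males and 13.22, 13.05 and 13.15 in females. The males lay within 0.02 of each other and above all females. The log2 difference was 0.24 (SE 0.10, 95% interval 0.01 to 0.47), with an adjusted p of 0.278 from limma and an exact permutation p of 0.1. MYL9, the regulatory light chain that is phosphorylated at the start of contraction, differed by 0.13, and MYLK, the kinase that phosphorylates it, by -0.09. Neither passed the test.

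ACTN1 (α-actinin 1, which crosslinks actin at stress fibre dense bodies and focal adhesions) read 13.76, 13.62 and 13.67 in males and 13.56, 13.52 and 13.49 in females. The sexes did not overlap, with a log2 difference of 0.16 (SE 0.09), an adjusted p of 0.442 from limma and an exact permutation p of 0.1. A second ACTN1 probe set gave 12.64, 12.33 and 12.49 against 12.07, 12.21 and 11.98, again without overlap, and a larger difference of 0.40 (SE 0.12) with an adjusted p of 0.194 from limma. The third differed by 0.21 with overlapping sexes and an adjusted p of 0.509. VCL (vinculin) and FLNA (filamin A), which tie actin to adhesions and to the membrane, differed by 0.01 and 0.11. Among the LIM-domain proteins FHL1, FHL2 and PDLIM3 the differences were 0.01, 0.14 and -0.19.

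The intermediate filament genes included the steadiest and one of the most variable of the class. VIM (vimentin, the filament of mesenchymal cells) had an SD of 0.05 over the 6 arrays and a log2 difference of 0.04 (95% interval -0.18 to 0.26). DES (desmin, the muscle filament) had a mean of 7.04 in males and 7.03 in females. SYNM (synemin, which links desmin to adhesions) is given because its interval reached beyond 2-fold. It read 8.97, 8.02 and 8.53 in males and 8.89, 8.86 and 9.34 in females, and its difference was -0.52 (SE 0.25, 95% interval -1.12 to 0.07) with an adjusted p of 0.347 from limma.

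Male replicate 3 stood out among the arrays for this class. It held the highest value for 11 of 23 genes (TAGLN, CNN1, DES, CALD1, TPM1, TPM2, TPM4, MYL9, FHL1, CSRP1 and VCL) and the lowest for 0, and it was above the gene's own mean for 19 of 23. Averaged over the 23 genes, its deviation from the gene means was 0.18, against -0.08 and -0.07 for the other males and -0.03, 0.07 and -0.07 for the females. The class median of 0.11 became -0.02 without male replicate 3 and 0.01 without female replicate 3, so its sign turned without male replicate 3 and its size rested on both arrays. A further probe set of TPM2 gave the widest departure of the same array, with 8.62 against 5.71 and 5.92 in the other males and 6.85, 5.99 and 6.27 in the females.

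**Figure D3:**
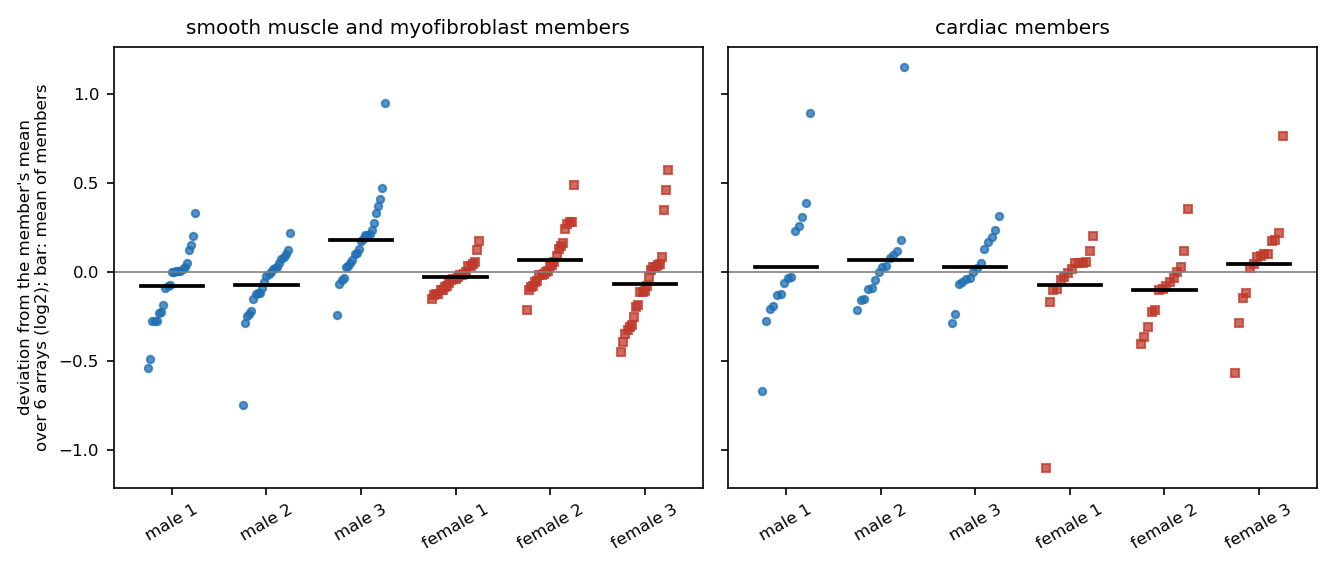
Deviation of each array from the gene's own mean over the 6 arrays (y axis, log2 units), with 1 point per smooth muscle and myofibroblast gene (23) or cardiac gene (14) and the mean over the genes marked. For the smooth muscle and myofibroblast genes male replicate 3 has a mean deviation of 0.18, and the other 5 arrays lie between -0.08 and 0.07.

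Among the cardiac genes, those of the contractile apparatus above the 25th percentile were TNNI3, TNNC1, MYL3, MYL4 and ACTN2. TNNI3, the inhibitory troponin of heart muscle, read 6.12, 6.57 and 7.02 in males and 6.90, 7.14 and 6.96 in females. The males spread widely and the highest of them lay within the female range, with a log2 difference of -0.43 (SE 0.22, 95% interval -0.95 to 0.09) and an adjusted p of 0.374 from limma. TNNC1, the calcium-binding troponin of heart and slow skeletal muscle, read 6.18, 5.75 and 5.81 in males and 5.63, 5.57 and 5.81 in females.

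MYL3, the ventricular and slow skeletal essential light chain, was the gene of the whole set whose sexes did not overlap with males lower. It read 7.25, 7.29 and 7.32 in males and 7.42, 7.37 and 7.59 in females, with a log2 difference of -0.18 (SE 0.10), an adjusted p of 0.425 from limma and an exact permutation p of 0.1. MYL4, the atrial light chain, read 6.27, 6.13 and 5.75 in males and 6.01, 5.98 and 6.08 in females. ACTN2, the α-actinin of the sarcomeric Z-disc, read 7.17, 7.30 and 7.35 in males and 7.32, 7.27 and 7.40 in females. The males enclosed the females for MYL4, and for ACTN2 the sexes overlapped in the chosen probe set, with a difference of -0.05, but not in a second one, with a difference of 0.34.

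The remaining cardiac genes above the 25th percentile control calcium, and both were higher in all males. PLN (phospholamban, an inhibitor of the calcium pump of the sarcoplasmic reticulum that is made in heart, slow skeletal and smooth muscle) had the largest difference of the cardiac class. It read 8.37, 8.63 and 7.42 in males and 6.39, 7.18 and 6.92 in females. Male replicate 3 lay 0.24 above female replicate 2, and the other males were more than 1 above any female. The log2 difference was 1.32 (SE 0.34, 95% interval 0.52 to 2.11), a 2.49-fold higher level in males, with an adjusted p of 0.158 over all probe sets and 0.0606 with the CV filter from limma, and an exact permutation p of 0.1.

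A second PLN probe set gave 6.10, 5.77 and 4.94 in males and 3.12, 4.74 and 3.65 in females. Its sexes did not overlap either, its female mean of 3.84 lay under the 25th percentile, and its difference of 1.77 (SE 0.45) had an adjusted p of 0.155 over all probe sets and 0.0458 with the CV filter from limma, which passes the call with that filter. In the main fit, with equal weights on all 6 arrays, the chosen probe set was not called. With the animal number added to the model as a block, it was called with the CV filter (adjusted p 0.0444 from limma). Without male replicate 3 its difference was 1.68 (3.20-fold), and the adjusted p from limma was 0.0396 over all probe sets and 0.0164 with the CV filter, while leaving out any other array kept both above 0.05. With array weights, which keep all arrays but count some for less, the adjusted p was 0.0464 and 0.00904.

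SLN (sarcolipin, a smaller inhibitor of the same pump, known from atrial and skeletal muscle) read 6.80, 6.72 and 6.50 in males and 6.49, 6.32 and 6.39 in females. The lowest male and the highest female were nearly equal. The log2 difference was 0.27 (SE 0.12, 95% interval -0.01 to 0.54), with an adjusted p of 0.304 from limma and an exact permutation p of 0.1. ATP2A2, the pump that both proteins bind, was lower in males without overlap, with 11.73, 11.76 and 11.57 against 11.87, 11.83 and 11.89. Its difference of -0.18 (SE 0.10) had an adjusted p of 0.417 from limma.

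Of the 39 genes RGS5 had the widest spread over the arrays. RGS5, a regulator of G protein signalling typical of pericytes and vascular smooth muscle, read 9.18, 10.20 and 9.13 in males and 6.86, 8.76 and 5.21 in females. All males lay above all females, the females spread over 3.56, and female replicate 3 was under the 25th percentile. The log2 difference was 2.56 (SE 0.82, 95% interval 0.63 to 4.48), a 5.88-fold higher level in males, with an adjusted p of 0.204 over all probe sets and 0.0517 with the CV filter from limma, and an exact permutation p of 0.1. With the CV filter the side of the threshold turned on single animals and on the settings. The adjusted p from limma was 0.00272 without female replicate 2 (difference 3.47, 11.1-fold), 0.0348 without male replicate 3, and 0.118 without female replicate 3 (difference 1.69, 3.22-fold). With all 6 arrays kept, it was 0.000825 with an intensity trend in the variance model, 0.00409 with array weights and 0.00679 with the replicate block. It was 0.0407 with the filter at 5%, 0.0488 with median-centred arrays and 0.0493 after quantile normalisation. None of the 39 genes was called with a robust variance model or with the filter at 20%.

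MCAM (CD146, an adhesion molecule of pericytes, smooth muscle and endothelium) read 6.61, 6.99 and 6.48 in males and 5.49, 6.78 and 5.56 in females. Female replicate 2 lay among the males and the other females below them. The difference was 0.75 (SE 0.34, 95% interval -0.06 to 1.56), with adjusted p of 0.329 over all probe sets and 0.218 with the CV filter from limma. A second MCAM probe set differed by 0.46. Female replicate 2 was thus the highest female for RGS5 and for MCAM.

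**Figure D4:**
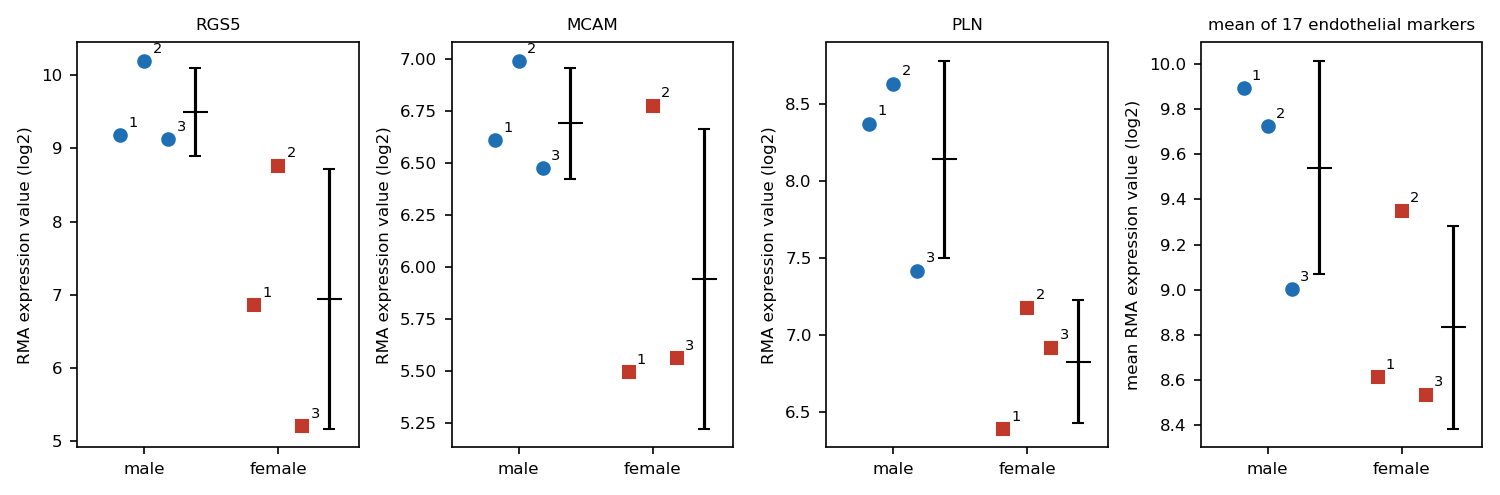
Level on each array (y axis, RMA log2 intensity) of RGS5, MCAM and PLN and the mean level of 17 endothelial markers, by sex, with the replicate number beside each point and bars for the mean ± SD of 3 arrays. RGS5 and PLN show all males above all females, and female replicate 2 is the highest female in each panel.

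Endothelial markers were also mostly higher in males by their means. Of 17 measured markers 16 lay above the 25th percentile, 14 had the higher mean in males, and the mean level of the list was 9.89, 9.73 and 9.00 in males and 8.61, 9.35 and 8.54 in females. Female replicate 2, high for RGS5 and MCAM among the females, was also the highest female here, and its VWF (von Willebrand factor, stored in endothelial cells) was the highest of all arrays, at 11.33 against 9.27 and 9.41 in the other females and 10.58, 10.90 and 9.68 in the males. ICAM2 and ESAM, adhesion molecules of endothelial cells, were called higher in males with the CV filter, by 1.70 and 1.59 on the log2 scale with adjusted p of 0.026 and 0.0395 from limma. PECAM1 differed by 1.11 with an adjusted p of 0.144 over all probe sets. The median difference of the list was 0.70, and it was 1.18 without male replicate 3 and 1.21 without female replicate 2. With the CV filter 0 markers were called without male replicate 1, male replicate 2 or female replicate 3, and 4 without male replicate 3. The share of all probe sets called without each array was not counted. The part of the endothelial transcripts in the values of RGS5, MCAM and PLN was not tested.

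Other pericyte genes lay on both sides. Of 8 measured, 3 had the higher mean in males and 5 the lower, the median difference was -0.12 (-0.024 without male replicate 1, -0.013 without female replicate 3 and -0.20 without male replicate 3) and none was called, with 2 lower in males at an unadjusted p under 0.05 in limma. PDGFRB, the receptor through which pericytes are recruited, read 11.10, 11.34 and 11.43 in males and 11.45, 11.68 and 11.77 in females, a difference of -0.34 (adjusted p 0.269 from limma) without overlap. ANPEP (aminopeptidase N) differed by -0.64 with an adjusted p of 0.251. Both are also expressed by fibroblasts. HIGD1B, a pericyte marker, was higher in males without overlap, with 6.09, 6.13 and 6.03 against 5.95, 5.80 and 5.94, a difference of 0.19 and an adjusted p of 0.379 from limma.

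The pathway that switches contraction on was read through 24 other measured genes, among them ion channels, phosphodiesterases and transcription factors. None was called by limma, 2 were higher at an unadjusted p under 0.05 and 0 lower, and the median difference was 0.09 (0.034 without female replicate 3). RHOA, the GTPase that keeps the light chain phosphorylated through its kinase, was higher in males by 0.40 (SE 0.11) without overlap, with an adjusted p of 0.165 from limma. RHOB, a related GTPase, differed by 0.39 with an adjusted p of 0.295, and KCNMA1, the large-conductance potassium channel that opposes contraction, by 0.44 with 0.317. MYOCD, the coactivator that drives smooth muscle genes with serum response factor, was lower in males by 0.55 on the log2 scale, with 6.53, 6.97 and 7.12 against 7.71, 6.90 and 7.67 and an adjusted p of 0.328.

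Cytoskeletal genes that are not particular to muscle build the stress fibres, cortex and microtubules of most cells. Of 38 measured 29 had the higher mean in males, 16 (42.1%) were higher without overlap and 15 (39.5%) were higher at an unadjusted p under 0.05 in limma, where all genes with 1 probe set each gave 15.7% and 11.0%. The smooth muscle and myofibroblast genes gave 3 and 2 of 23, and the difference between the lists was not tested. The median was 0.22, from 0.16 to 0.28 when each array was left out, and the count of 15 became 6 without male replicate 1 or 2, 9 without female replicate 1 and 5 without female replicate 3. No gene of the list was called over the whole table, and TPPP3 (a tubulin-binding protein) and TES (testin, of focal adhesions) were called higher with the CV filter, by 1.99 and 1.86 on the log2 scale with adjusted p of 0.0123 and 0.0334 from limma. Leaving out any 1 of these 4 arrays, 1 gene of the list was called with the filter. TAGLN2, the nonmuscle relative of TAGLN, read 13.54, 13.27 and 12.99 in males and 12.61, 12.56 and 12.32 in females, a difference of 0.77 (SE 0.16, adjusted p 0.115 from limma). The nonmuscle actins ACTB and ACTG1 and the nonmuscle myosin MYH9 differed by 0.21, 0.13 and 0.10, with adjusted p of 0.511, 0.518 and 0.618. Averaged over this list, the deviation from the gene means was 0.28, 0.17 and -0.00058 in male replicates 1 to 3. In female replicates 1 to 3 it was -0.19, 0.0082 and -0.26. For the endothelial markers above it was 0.71, 0.54 and -0.18 in males and -0.57, 0.16 and -0.65 in females. The part of the endothelial transcripts in the counts of this list was not tested.

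Further smooth muscle genes gave 8 higher and 6 lower means among 14 measured, and none was called. Their median difference was 0.14 (-0.0021 without male replicate 1 and 0.089 without female replicate 3). At an unadjusted p under 0.05 in limma 6 of 14 passed, 4 higher and 2 lower, where 16.9% of all probe sets did. The count of higher genes ranged from 2 to 4 when each array was left out. The sexes did not overlap for 7 of 14, 5 higher and 2 lower in males, against 24.7% of all genes with 1 probe set each. The difference from these shares was not tested. The small heat shock proteins of this list differed in direction. HSPB8 and CRYAB, chaperones of muscle, were higher in males by 0.62 and 0.43, and HSPB6, which relaxes smooth muscle when phosphorylated, was lower by 0.57, all without overlap and with adjusted p of 0.151, 0.159 and 0.235 from limma.

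Further cardiac genes gave 12 higher and 12 lower means among 24 measured, of which 16 lay above the 25th percentile, and a median of -0.015 that turned to 0.030 without male replicate 1 and 0.044 without female replicate 1. NPPB (B-type natriuretic peptide, released by stretched ventricle) was called higher in males with the CV filter. It read 7.84, 9.13 and 6.85 in males and 6.21, 6.03 and 5.92 in females, a difference of 1.89 (SE 0.51) with an adjusted p of 0.0468 with the filter and 0.167 over all probe sets from limma. No gene of this list was called with the filter when any array other than male replicate 3 was left out. ENO3 (muscle enolase) and MYOM2 (an M-band protein) were lower in males by 0.49 and 0.56 without overlap, with adjusted p of 0.178 and 0.188. Skeletal muscle genes were mostly dim, with 10 of 15 measured genes under the 25th percentile and none called.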

How the data were processed

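Aortic valve leaflet RNA (400 ng per array) from 3 castrated male and 3 female pigs was hybridised to 1 array per animal. The deposited log2 values were made by the authors with RMA in R 2.12.0, which corrects background, quantile-normalises the arrays and summarises the probes of a probe set. No array scan was used here. Of 24123 probe sets, 124 controls were left out of the comparison over all probe sets. In the array annotation 10069 probe sets named 1 gene, 198 several and 13732 none. The annotation gave no genome build, so no positions are printed.

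Males and females were compared with limma 3.58.1 (lmFit, eBayes) in R 4.3.3 over all 23999 probe sets, with Benjamini-Hochberg adjustment. The comparison was repeated over the 10% of all 24123 probe sets with the highest CV (SD over mean of the log2 values, here at least 6.50%), which held 5 controls. The study's methods name a CV filter, meant to exclude values too unlike across replicates, without its share or limit. Keeping the highest CV over both sexes favours probe sets that differ by sex, and whether the study's filter did so cannot be told. A call needed an adjusted p under 0.05 and 2-fold. A gene was taken from the probe set with the highest mean. Single values also had two-sided exact permutation tests. The procedure was tested on simulated data.

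The members and all lists were chosen with earlier results of these data known, so counts over a list are descriptions. Values on each array are given for ACTA2 and TAGLN, members without overlap and cardiac members above the 25th percentile, and other genes so shown were picked after their values were seen. From the other lists, called genes, up to 3 with the smallest p and tissue markers were named, and MYOCD, HIGD1B, TAGLN2, ACTB, ACTG1, MYH9 and ATP2A2 were added for their roles. Alternatives covered normalisation, variance model, filters, the probe set of a gene, a replicate block and leaving out each array. The precision is set by 3 arrays per sex, and the deposited table carries no detection call.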

Additional observations from a re-analysis of the deposited data

How the results depend on the processing

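Of 39 genes 24 kept their direction under all 12 alternatives and 15 did not, 11 of them only when an array was left out. The replicate block, the intensity trend and the robust variance model leave every difference unchanged by construction, so they could not turn a direction. The choice of probe set was not among the 12. Of 23 further probe sets of these genes, 7 had the other direction from the chosen one. The class medians ranged from -0.021 to 0.16 (smooth muscle and myofibroblast), -0.02 to 0.05 (cardiac) and 1.12 to 2.32 (pericyte) when each array was left out. The count called over all probe sets was 0 to 1 when each array was left out, and 1 (PLN, adjusted p 0.0464) with array weights. With the CV filter the count was 0 to 2 when each array was left out, 1 (RGS5) with median-centred arrays, quantile normalisation, an intensity trend or the filter at 5%, 1 (PLN) with the probe set of largest SD, and 3 (PLN, RGS5 and MCAM) with array weights. The cause was not tested. The share of all probe sets called under each alternative was not counted, so a rise in calls may not be particular to these genes. The count of cardiac genes above the low end was 13 at the 10th percentile and 2 at the median, and the smooth muscle and myofibroblast count was 21 to 23. Under scaling, FHL1 turned to -0.0024 (median-centred) and -0.0065 (quantile) and VCL to -0.0075 (quantile). With array weights FHL1 was -0.066, VCL -0.049, DES -0.081 and CKM -0.020. When each array was left out, the log2 difference ranged from -0.35 to 0.056 for ACTA2, -0.26 to 0.48 for CNN1, -0.052 to 0.072 for DES, -0.0065 to 0.29 for TPM2, -0.038 to 0.23 for MYL9, -0.10 to 0.067 for FHL1, -0.021 to 0.28 for CSRP1, -0.036 to 0.26 for FLNA and -0.039 to 0.058 for VCL. Among the cardiac genes it ranged from -0.25 to 0.047 for ACTC1, -0.033 to 0.11 for MYL2, -0.082 to 0.18 for MYL4, -0.0064 to 0.24 for RYR2, -0.54 to 0.041 for TTN and -0.0048 to 0.23 for CKM.

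The labels number the animals 1 to 3 in each sex. Deviations from the group means of same-numbered arrays correlated at -0.10, 0.01 and 0.27, and those of differently numbered arrays at -0.22 to 0.21. With 3 arrays per sex these values cannot decide whether the numbers pair the samples. With the number as a block, 0 genes were called over all probe sets and 2 with the CV filter (PLN, adjusted p 0.0444, and RGS5, 0.00679, from limma). The class medians are the same with the block by construction. The planned description of promoter motifs was not run because no promoter table was used here. Dim cardiac probe sets and 3 arrays per sex limit what the values can show.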

Other observations

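Genes of fibroblasts and of myofibroblast activation, which the comparison of contractile genes did not include, leaned the other way by count. Of 12 measured interstitial and fibroblast markers 11 had the lower mean in males and the median log2 difference was -0.27 (-0.16 without male replicate 1). DCN read 13.91, 14.12 and 14.12 in males and 14.28, 14.49 and 14.52 in females, a difference of -0.38 with an adjusted p of 0.197 from limma. MFAP5, a microfibril protein, was the exception, called higher in males with the CV filter by 1.64 with an adjusted p of 0.0439 from limma, and not called without male replicate 1 or 2 or female replicate 1 or 2. Of 15 measured genes linked to myofibroblast activation (matrix, cytokines and receptors) 11 had the lower mean in males, the median was -0.16 (-0.063 without female replicate 2) and none was called in either comparison, with 3 higher and 2 lower at an unadjusted p under 0.05 in limma. TNC (tenascin C) read 7.86, 8.13 and 7.99 in males and 8.80, 8.45 and 9.86 in females, a difference of -1.04 with an adjusted p of 0.202. THBS1 (thrombospondin 1) differed by -0.51 and CDH11 (cadherin 11) by 0.87, with adjusted p of 0.197 and 0.152, all 3 without overlap.

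Markers of other cells were read as a check of the tissue. Of 9 measured macrophage markers 6 had the higher mean in males, with a median of 0.28 (0.15 without male replicate 2 and 0.090 without female replicate 3) and none called. The 3 measured erythroid markers had a median of 0.09 (0.033, 0.013 and 0.050 without male replicate 1, male replicate 3 and female replicate 2), with HBB (β-globin) at 9.79 in males and 9.87 in females. Of 15 measured skeletal muscle genes 13 had the lower mean in males, with a median of -0.06 (-0.033, -0.19 and -0.10 without male replicate 1, female replicate 2 and female replicate 3) and 1 lower at an unadjusted p under 0.05 in limma.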
